A study of Capra hircus with 9 samples.

Results

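The 10 genes described here encode the core of the cytosolic heat shock and chaperone machinery: HSPA8, HSPA4, HSPH1, HSP90AA1, HSP90AB1, HSPB1, HSPB8, DNAJB1, BAG3 and HSF1. They were chosen by gene symbol, 10 of the 23499 genes of the table, and all 10 were found and passed the filter on low values. Mammary gland tissue was taken after slaughter from 9 healthy Laoshan dairy goats, 1 library per goat, at 3 stages with 3 goats each. Late lactation (LL) goats were 240 days postpartum, dry period (DP) goats were 300 days postpartum, and late gestation (LG) goats were 140 days after mating. All goats were of parity 3, with an average age of 4 years, and no treatment or genetic change was part of the design. The question was how the levels of these genes differed between the 3 stages.

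Chaperones bind proteins that are being made or have lost their fold and keep them from clumping together. HSP70 proteins work in cycles of ATP binding and hydrolysis, in which J-domain proteins bring the client and nucleotide exchange factors release it, while HSP90 proteins act later on nearly folded clients such as kinases and steroid hormone receptors. Small heat shock proteins hold unfolded clients without ATP, BAG3 links HSPB8 and HSP70 to selective autophagy, and HSF1 is the transcription factor that switches on many of these genes under stress. In a secretory gland the cytosolic chaperones serve the proteins made outside the endoplasmic reticulum, whereas milk proteins are folded inside it.

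The table gives 1 value per gene and library and names no unit, and the values were taken as FPKM, fragments per gene length and sequencing depth. Read depth per value is unknown, and counting error could not be computed. Summed FPKM ranged over 940676 to 1157010 for LL libraries, over 601250 to 616268 for DP and over 733277 to 768157 for LG, and the 10 highest genes held 80.6% to 86.0% of the sum in LL against 53.6% to 58.5% in DP and LG. Values were therefore divided by scaling factors, the median ratio of a library to the others (0.498 to 0.605 for LL, 1.44 to 1.53 for DP, 1.20 to 1.31 for LG). Left unscaled, the median log2 fold change over all tested genes was -0.18 for LG against DP, 0.93 for LG against LL and 1.09 for DP against LL, so the levels below are "scaled FPKM" unless said otherwise. Log2 fold changes are differences of mean log2(scaled FPKM + 1), which understates changes of low genes, and each comes with its SE and an adjusted p from limma. A gene was called where the adjusted p was below 0.05 and the log2 fold change was at least 1 in size.

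The marker genes fitted mammary tissue. The summed level of 5 milk secretory genes, CSN2 (beta-casein) among them, was 167379 to 270888 scaled FPKM in LL goats, 41.4 to 58.6 in DP and 4651 to 5857 in LG. Of the 4 skeletal muscle markers in the table none passed the filter, and their sum stayed between 0.0661 and 0.325 in the 9 libraries. Luminal epithelial markers summed to 819 to 1106 in LL goats, 269 to 522 in DP and 733 to 891 in LG. A large part of the LL sum was ELF5 (440 to 676 in LL, 25.8 to 44.2 in DP), the only 1 of the 6 called in DP against LL. The means of KRT8 and KRT18 were higher in DP than in LL, and those of KRT19, EPCAM and CDH1 lower. By contrast, 5 of 6 fibroblast markers and 3 of 5 leukocyte markers were called higher in DP than in LL. In bulk tissue, fewer cells of a type and less RNA per cell cannot be told apart.

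Some libraries stood apart for some of these genes. LG replicate 3 was the highest of all 9 libraries for 6 of the 10 chaperone genes, whereas 12.6% of the 14701 genes tested were highest there. DP replicate 3 was far above its stage for HSPB8. LL replicate 2 had the lowest level of the 9 libraries for HSPH1 and HSPB1, and leaving it out ended the only call in each comparison with LL. Calls that rest on 1 of these libraries are given with and without it, as are some other values.

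**Figure D1:**
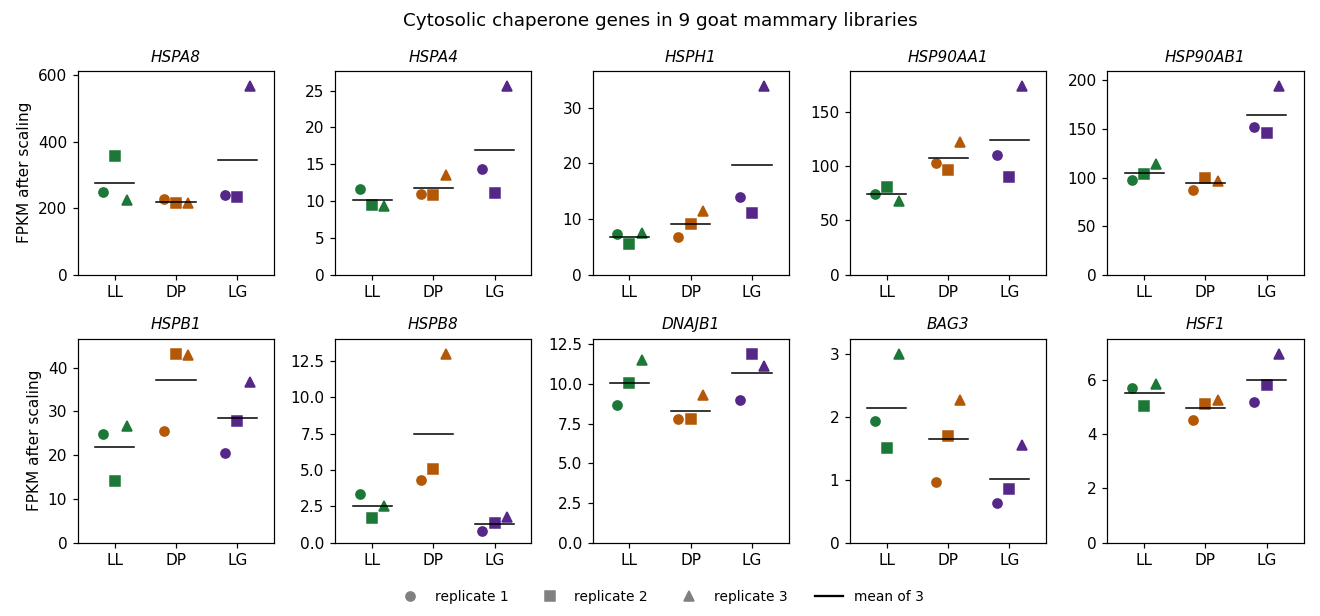
Level of each of the 10 genes in the 9 libraries (y axis, FPKM after scaling, starting at 0), with 3 goats per stage as points (circle, square and triangle for replicates 1, 2 and 3) and the mean as a line. LG replicate 3 lies far above the other LG libraries for HSPA8, HSPA4 and HSPH1, HSP90AB1 is higher in every LG library than in any other, and HSPB8 is highest in the 3 DP libraries.

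Few of the 10 genes differed between stages beyond the spread of the goats. In DP against LL 1 gene was called higher (HSPB8) and none lower, while 13.8% of all tested genes were called higher and 8.79% lower. In LG against LL 1 gene was called higher (HSPH1) and none lower, against 10.7% and 6.61% of all genes. In LG against DP none was called higher and 1 lower (HSPB8), against 6.37% and 6.88% of all genes. Counting adjusted p-values below 0.05 from limma at any size, 1 of 10 genes passed for DP against LL, 3 for LG against LL and 2 for LG against DP, where 56.9%, 50.2% and 34.8% of all tested genes passed. At an unadjusted p below 0.05 (limma), 2 members passed for DP against LL (HSPB1 and HSPB8, both higher), beside 62.2% of all genes. For LG against LL 5 passed (HSPA4, HSPH1, HSP90AA1 and HSP90AB1 higher, BAG3 lower) beside 56.7%, and for LG against DP 3 passed (HSPH1 and HSP90AB1 higher, HSPB8 lower) beside 45.4%. By the p-value alone, adjusted or not, a smaller share of the 10 genes than of all genes passed in each comparison. The median log2 fold change of the 10 genes was 0.03 for DP against LL, 0.30 for LG against LL and 0.27 for LG against DP, beside 0.004, 0.02 and 0.008 for all tested genes. In number, 5 of the 10 lay above 0 for DP against LL, 8 for LG against LL and 7 for LG against DP. The LG medians and counts rest in part on LG replicate 3, where all 10 genes were above the mean of the other LG libraries. Without it the signs of, among others, HSPA8 in LG against LL and HSP90AA1 in LG against DP turned. The 3 comparisons share libraries in pairs and are not independent of each other.

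**Figure D2:**
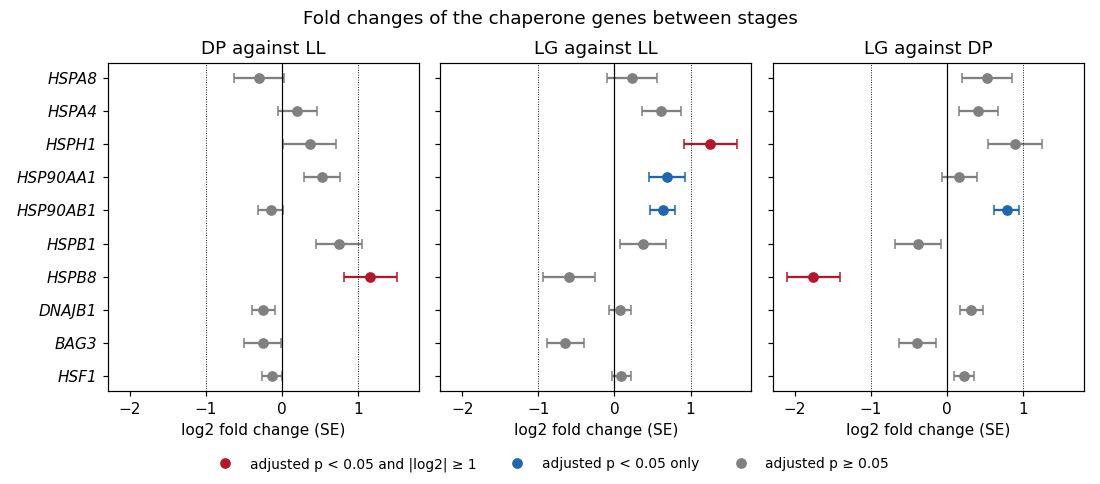
Log2 fold change of each gene (x axis, points, with bars of 1 SE from limma, all 9 libraries in one fit) for the comparisons of DP with LL, LG with LL and LG with DP. HSPB8 is called in DP against LL (1.16) and LG against DP (-1.76), HSPH1 in LG against LL (1.26), and HSP90AA1 and HSP90AB1 pass the adjusted p alone where marked in blue.

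HSPB8, a small heat shock protein that works with BAG3, had the largest fold change of the 10 genes and was high in DP. The gene (identifier 102182717) lies on the plus strand of chromosome 17 from 15082189 to 15095211, in the coordinates of the table, which names no genome build. Its level was 3.31, 1.66 and 2.49 scaled FPKM in LL replicates 1 to 3, 4.27, 5.09 and 12.9 in DP, and 0.784, 1.35 and 1.77 in LG. All DP libraries were above all others, DP replicate 3 was 2.77 times the mean of the other DP libraries, and LL and LG overlapped. The mean rose from 2.49 ± 0.826 (SD, n = 3) in LL to 7.44 ± 4.79 in DP, a log2 fold change of 1.16 (SE 0.35, adjusted p = 0.0173, limma). Without DP replicate 3 the log2 fold change was 0.72 (adjusted p = 0.0266, limma), which is below the size needed for a call, and without LL replicate 2 it was 0.97 (adjusted p = 0.0696, limma). LG was lower than DP by a log2 fold change of -1.76 (SE 0.35, adjusted p = 0.00398, limma), and this call held without DP replicate 3 (-1.30, adjusted p = 0.00351). LG against LL gave -0.59 (adjusted p = 0.179, limma), which did not pass, and its sign turned to 0.14 without scaling.

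Markers of some other kinds were also highest in DP replicate 3, and those of others were not. All 6 fibroblast markers had their highest level of the 9 libraries there, with summed levels of 502, 906 and 2392 scaled FPKM in DP replicates 1 to 3, 212 to 324 in LL and 521 to 954 in LG. Of the 7 myoepithelial markers, 3 were highest in DP replicate 3, among them ACTA2, the smooth muscle actin, with 34.5, 31.9 and 141 scaled FPKM in the DP libraries, and CNN1, a contractile protein, with 5.10, 5.15 and 31.0. KRT5, a basal keratin of the same list, was highest in DP replicate 2 instead. Of the 5 endothelial markers 3 were highest in DP replicate 3, as were 3 of the 8 immediate early genes. FOS was at 26.6, 6.03 and 90.9 scaled FPKM in the DP libraries and JUNB at 33.3, 18.1 and 58.2. Within DP, FOSB, EGR1, ATF3 and DUSP1 were also highest in replicate 3, while JUN (95.4, 42.6 and 44.7) and IER2 (13.7, 8.96 and 8.61) were highest in replicate 1. No leukocyte or adipocyte marker was highest in DP replicate 3. Leukocyte markers summed to 115, 68.0 and 53.5 scaled FPKM in DP replicates 1 to 3, and adipocyte markers to 22.8, 3.56 and 3.77. HSPB8 followed the order of the fibroblast sum within DP, an order that HSPH1, DNAJB1, BAG3 and HSF1 had too. LG libraries had a higher fibroblast sum than DP replicate 1 and less HSPB8. Marker by marker the order of LG and DP replicate 1 varied. COL1A1, COL1A2 and COL3A1 were higher in every LG library than in DP replicate 1, and LUM lay on both sides of it. DCN (187 scaled FPKM in DP replicate 1, 56.1 to 69.8 in LG) and PDGFRA (23.1, and 3.55 to 4.68) were lower in LG. The part of any of these cell types and of immediate early expression in the HSPB8 level was not tested.

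BAG3, the cochaperone that couples HSPB8 to HSP70 and to autophagy, was not high in DP as HSPB8 was. The gene (identifier 102168602) lies on the minus strand of chromosome 26 from 12206500 to 12229905. Its level was 1.93, 1.50 and 2.99 scaled FPKM in LL goats, 0.969, 1.69 and 2.26 in DP, and 0.626, 0.843 and 1.55 in LG. The stages overlapped in all 3 comparisons, the order of the libraries within DP and within LG was that of HSPB8, and BAG3 had the lowest mean of the 10 genes in every stage. The log2 fold change was -0.64 in LG against LL (SE 0.24, adjusted p = 0.0512, limma), -0.25 in DP against LL (adjusted p = 0.392) and -0.39 in LG against DP (adjusted p = 0.242). The first value was -0.82 (adjusted p = 0.0279) without LG replicate 3 and -0.83 (adjusted p = 0.0405) without LL replicate 2 in limma. No call was made, and without scaling the first of these values turned to 0.04 and the second to 0.61.

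HSPB1, the most abundant small heat shock protein of the set, varied as much within a stage as between stages. The gene (identifier 108633906) lies on the plus strand of chromosome 25 from 35264989 to 35266715. Its level was 24.8, 14.2 and 26.6 scaled FPKM in LL goats, 25.5, 43.1 and 42.9 in DP, and 20.6, 27.8 and 36.8 in LG. DP replicates 2 and 3 were the highest of all libraries, but DP replicate 1 lay inside the LL range. DP against LL gave a log2 fold change of 0.75 (SE 0.30), which had an adjusted p of 0.0576 in limma, and quantile normalization raised it to 1.17 and a call. Upper-quartile scaling gave 0.94 (adjusted p = 0.0231) and leaving out DP replicate 1 gave 0.99 (adjusted p = 0.0243), whereas it fell to 0.46 (adjusted p = 0.225) without LL replicate 2, all in limma. LG against LL gave 0.37 (adjusted p = 0.331, limma) and LG against DP -0.38 (adjusted p = 0.361, limma).

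HSP90AB1, the constitutive HSP90, was the member with the clearest rise in LG. The gene (identifier 100861006) lies on the minus strand of chromosome 23 from 31094597 to 31100346. Its level was 98.0, 103 and 114 scaled FPKM in LL goats, 87.7, 99.2 and 96.5 in DP, and 153, 146 and 194 in LG. Every LG library was above every LL and DP library, and LL and DP overlapped. Mean levels were 105 ± 7.88 (SD, n = 3) in LL goats, 94.4 ± 5.98 in DP and 164 ± 25.8 in LG. The log2 fold change was 0.63 in LG against LL (SE 0.16, adjusted p = 0.00913, limma) and 0.78 in LG against DP (SE 0.16, adjusted p = 0.00489, limma), both past the adjusted p and short of the size for a call. Without LG replicate 3 they were 0.51 (adjusted p = 0.0288) and 0.65 (adjusted p = 0.0158) in limma, and quantile normalization gave 0.43 (adjusted p = 0.0792) for LG against DP. DP against LL gave -0.15 (adjusted p = 0.439, limma), a sign that turned with no scaling (1.25), quantile normalization (0.64) and upper-quartile scaling (0.05).

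HSP90AA1, the stress-inducible HSP90, had a different order of stages. The gene (identifier 100860851) lies on the minus strand of chromosome 21 from 66200079 to 66205435. Its level was 74.6, 80.9 and 67.5 scaled FPKM in LL goats, 103, 96.9 and 123 in DP, and 110, 90.1 and 173 in LG. LL was lowest, with no overlap with DP or LG, while DP and LG overlapped. The log2 fold change was 0.69 in LG against LL (SE 0.23, adjusted p = 0.0337, limma), but 0.42 (adjusted p = 0.0917) without LG replicate 3 and 0.74 (adjusted p = 0.0591) without LL replicate 2. It also missed the adjusted p without LL replicate 1 (0.0794), LL replicate 3 (0.103) or LG replicate 1 (0.0530) in limma. DP against LL gave 0.52 (SE 0.23, adjusted p = 0.0808, limma), 0.72 (adjusted p = 0.0198) with upper-quartile scaling, and 0.53 (adjusted p = 0.0235) once LG replicate 3 was left out of the shared estimate of the spread. LG against DP gave 0.16 (adjusted p = 0.621, limma), a sign that turned without LG replicate 3 (-0.10), without scaling (-0.07) and with quantile normalization (-0.24).

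HSPH1, the HSP110 that acts as a nucleotide exchange factor for HSP70 and helps to dissolve aggregates, was the only member called in LG against LL. The gene (identifier 102187688) lies on the minus strand of chromosome 12 from 56897674 to 56921124. Its level was 7.25, 5.55 and 7.53 scaled FPKM in LL goats, 6.83, 9.07 and 11.4 in DP, and 14.0, 11.0 and 33.8 in LG. Every LG library was above every LL library, LG overlapped with DP, and LG replicate 3 was 2.70 times the mean of the other LG libraries. The mean rose from 6.78 ± 1.07 (SD, n = 3) in LL to 19.6 ± 12.4 in LG, a log2 fold change of 1.26 (SE 0.35, adjusted p = 0.0142, limma). Without LG replicate 3 it was 0.80 (adjusted p = 0.0190, limma), past the adjusted p and below the size for a call, and without LL replicate 2 it was 1.13 (adjusted p = 0.0530, limma). LG against DP gave 0.90 (SE 0.35, adjusted p = 0.0743, limma), and 1.20 (adjusted p = 0.0299) without LG replicate 2. LG replicate 3 raised the LG against DP value, as LG replicates 1 and 2 were at 14.0 and 11.0 beside 11.4 in DP replicate 3. DP against LL gave 0.36 (adjusted p = 0.395, limma).

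HSPA8, the constitutive cytosolic HSP70, was the most abundant of the 10 genes in every stage. The gene (identifier 102182240) lies on the plus strand of chromosome 15 from 48651348 to 48655824. Its level was 249, 357 and 224 scaled FPKM in LL goats, 227, 215 and 217 in DP, and 239, 235 and 567 in LG. LG replicates 1 and 2 lay inside the LL range and LG replicate 3 was 2.39 times their mean, while every LG library lay above every DP library by a small margin. Before scaling, LG replicates 1 and 2 (286 and 290 FPKM) were below every DP library (310 to 347 FPKM). The SD was 6.62 (n = 3) in DP, 70.7 in LL and 191 in LG. No comparison passed: the log2 fold change was -0.30 for DP against LL (adjusted p = 0.447), 0.22 for LG against LL (adjusted p = 0.594) and 0.53 for LG against DP (adjusted p = 0.239) in limma. The LG against LL value turned to -0.19 without LG replicate 3, a library that also raised the LG against DP value. The DP against LL value turned to 1.11 without scaling and 0.63 with quantile normalization. The unscaled value is close to the 1.09 of the median of all genes. HSPA8 and the HSP90 genes have close paralogs and processed copies in mammalian genomes, and how reads with several matches were assigned is not given in the sources used here.

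HSPA4, a second relative of the HSP110 group with exchange activity, showed the same high LG library. The gene (identifier 102172434) lies on the minus strand of chromosome 7 from 65822205 to 65871647. Its level was 11.7, 9.47 and 9.31 scaled FPKM in LL goats, 10.9, 10.9 and 13.6 in DP, and 14.3, 11.0 and 25.6 in LG. All 3 stages overlapped with each other, and LG replicate 3 was 2.02 times the mean of the other LG libraries. The log2 fold change was 0.61 in LG against LL (SE 0.26, adjusted p = 0.0731, limma), and 0.29 (adjusted p = 0.206) without LG replicate 3. It was 0.86 (adjusted p = 0.0200) without LG replicate 2 and 0.67 (adjusted p = 0.0446) with upper-quartile scaling in limma. DP against LL gave 0.20 (adjusted p = 0.526, limma) and LG against DP 0.41 (adjusted p = 0.239, limma), a value that LG replicate 3 also raised.

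DNAJB1, the J-domain partner of cytosolic HSP70 and a classical heat shock gene, and HSF1, the regulator of the heat shock response, stayed in a narrow range. DNAJB1 (identifier 102172345, plus strand of chromosome 7, 96663097 to 96666923) was at 8.68, 10.1 and 11.5 scaled FPKM in LL goats, 7.81, 7.82 and 9.32 in DP, and 8.99, 11.9 and 11.1 in LG. HSF1 (identifier 102178552, plus strand of chromosome 14, 81310095 to 81328764) was at 5.71, 5.04 and 5.85 in LL goats, 4.52, 5.13 and 5.26 in DP, and 5.19, 5.83 and 6.95 in LG. The stages overlapped for both genes in all 3 comparisons. The log2 fold changes of DNAJB1 were -0.25 for DP against LL (adjusted p = 0.183), 0.07 for LG against LL (adjusted p = 0.712) and 0.32 for LG against DP (adjusted p = 0.127) in limma. Those of HSF1 were -0.13 (adjusted p = 0.396), 0.09 (adjusted p = 0.568) and 0.22 (adjusted p = 0.199) in limma. The negative values in DP turned without scaling, to 1.01 for DNAJB1 and 1.03 for HSF1, which is again near the shift of all genes, and HSF1 turned to 0.04 with upper-quartile scaling. HSF1 is regulated largely at the protein level, so its mRNA level is not a measure of its activity.

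**Figure D3:**
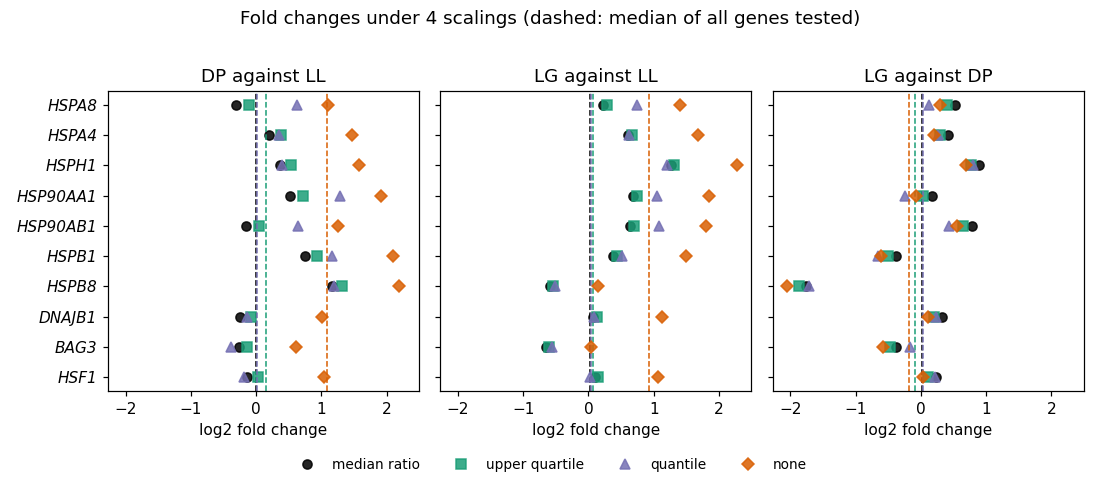
Log2 fold change of each gene (x axis) in the 3 comparisons under median-ratio scaling, upper-quartile scaling, quantile normalization and no scaling, with a dashed line at the median of all tested genes under each. In DP against LL and LG against LL the unscaled values lie to the right with their median (1.09 and 0.93), and 5 genes change sign in DP against LL.

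FPKM are per length, so the deposited, unscaled values can also be ordered between genes within a stage. In LL the means fell from HSPA8 (152 ± 39.5 FPKM, SD, n = 3) through HSP90AB1 (58.2), HSP90AA1 (40.9) and HSPB1 (12.1) to DNAJB1 (5.62), HSPA4 (5.56), HSPH1 (3.75), HSF1 (3.06), HSPB8 (1.36) and BAG3 (1.20). Neighbours in this order whose libraries overlapped were DNAJB1 with HSPA4, HSPH1 with HSF1, and HSPB8 with BAG3. In DP the order was HSPA8 (323 ± 21.0), HSP90AA1 (158), HSP90AB1 (139), HSPB1 (54.3), HSPA4 (17.3), HSPH1 (13.3), DNAJB1 (12.2), HSPB8 (10.8), HSF1 (7.29) and BAG3 (2.39). There HSP90AA1 and HSP90AB1 overlapped, as did each neighbour from HSPA4 down to HSF1. In LG the order was HSPA8 (440 ± 264), HSP90AB1 (206), HSP90AA1 (157), HSPB1 (35.8), HSPH1 (24.9), HSPA4 (21.4), DNAJB1 (13.3), HSF1 (7.51), HSPB8 (1.65) and BAG3 (1.28). Overlapping neighbours in LG were HSP90AB1 with HSP90AA1, each pair from HSPB1 to DNAJB1, and HSPB8 with BAG3. HSPA8 was first and BAG3 last in all 3 stages, HSP90AA1 had the higher mean of the HSP90 genes in DP alone, and HSPB8 was 8th in DP and 9th in LL and LG.

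Ratios of 2 genes within a library do not depend on the scaling. Ratios of 4 pairs, chosen after the values were seen, gave 12 comparisons, for which an exact permutation test of 3 against 3 libraries cannot go below p = 0.1. The ratio of HSP90AA1, the inducible form, to HSP90AB1, the constitutive form, was 0.761, 0.782 and 0.595 in LL goats, 1.17, 0.978 and 1.27 in DP, and 0.722, 0.616 and 0.895 in LG. All DP libraries were above all LL and LG libraries, while LL and LG overlapped. The mean ratio was 0.713 ± 0.103 (SD, n = 3) in LL goats, 1.14 ± 0.150 in DP and 0.745 ± 0.141 in LG. DP was 1.60-fold above LL and LG was 1.54-fold below DP, each at the smallest p the design allows (0.1, exact two-sided permutation test, adjusted p = 0.2 over the 12), and LG against LL gave a log2 difference of 0.06 (exact p = 0.9) that turned to -0.08 without LG replicate 3.

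The ratio of HSPB8 to its partner BAG3 separated DP from the other stages by the widest margin of the 4. It was 1.72, 1.11 and 0.834 in LL goats, 4.41, 3.02 and 5.74 in DP, and 1.25, 1.61 and 1.14 in LG. DP did not overlap with LL or LG even without DP replicate 3, and LL and LG overlapped. DP was 3.64-fold above LL and LG was 3.22-fold below DP (exact two-sided permutation p = 0.1 each, adjusted p = 0.2). The ratio of HSPH1 to HSPA4 was 0.621, 0.586 and 0.809 in LL goats, 0.624, 0.834 and 0.839 in DP, and 0.981, 0.998 and 1.32 in LG. Here LG was above all other libraries, 1.64-fold over LL and 1.44-fold over DP (exact two-sided permutation p = 0.1 each, adjusted p = 0.2), while DP and LL overlapped (exact p = 0.2). LG replicates 1 and 2 were by themselves above every LL and DP library. The ratio of DNAJB1 to HSPA8, a J-domain protein to its HSP70, ranged from 0.0196 in LG replicate 3 to 0.0514 in LL replicate 3, and all 3 stages overlapped (exact p = 0.9 in each comparison).

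**Figure D4:**
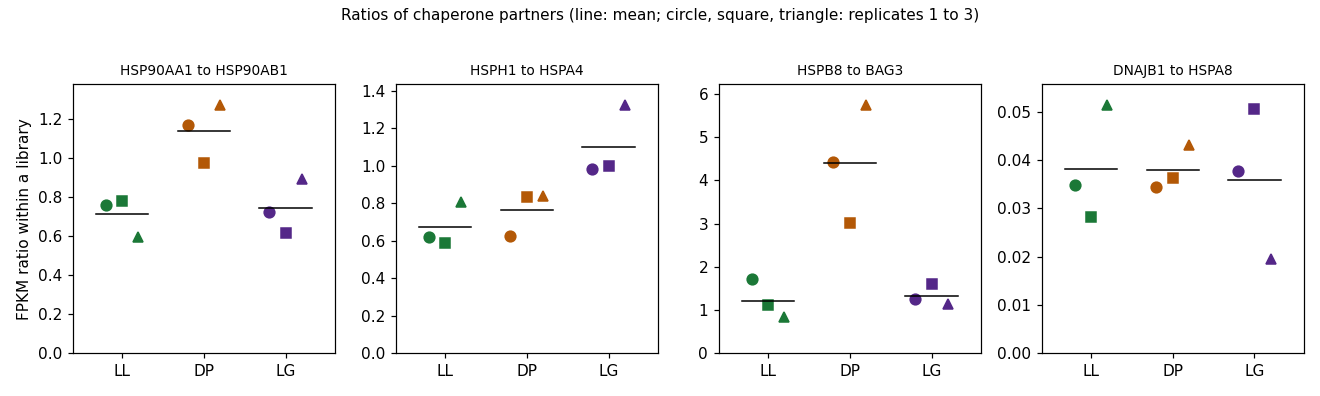
Ratio of the FPKM of 2 genes within each library (y axis, starting at 0) for 4 pairs, with 3 goats per stage as points and the mean as a line. HSP90AA1 to HSP90AB1 and HSPB8 to BAG3 are highest in the 3 DP libraries, HSPH1 to HSPA4 is highest in the 3 LG libraries, and DNAJB1 to HSPA8 overlaps between stages.

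LG replicate 3 carried more of these transcripts than the other LG goats. On the log2 scale its excess over the mean of LG replicates 1 and 2 was 1.37 for HSPH1, 1.26 for HSPA8, 0.97 for HSPA4 and 0.79 for HSP90AA1. Below these came HSPB1 (0.60), BAG3 (0.56), HSPB8 (0.44), HSP90AB1 (0.37), HSF1 (0.29) and DNAJB1 (0.10). All 10 were above 0, with a median of 0.58 beside -0.03 for all tested genes. Of the 10, 6 were at least 0.5 above the other LG libraries, as were 6.41% of all tested genes, and in the other 8 libraries 0 to 2 members were that far above their stage. Only 64 of the 14701 tested genes had an excess as large as HSPH1, and 85 (0.578%) one as large as HSPA8. The HSP70 and HSP110 members stood far out in this goat, while DNAJB1 and HSF1 did not.

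Some other groups of chaperones were also high in LG replicate 3, and others were not. All 8 subunits of the CCT chaperonin, the cytosolic ring that folds actin and tubulin, were highest of the 9 libraries there, with an excess of 0.39 to 0.87. So were 6 of 7 mitochondrial chaperones and 11 of 17 HSP90 and HSP70 cochaperones, beside 12.6% of all tested genes. In the other lists it was 5 of 15 J-domain proteins, 1 of 6 prefoldins and 1 of 6 BAG and HSPBP1 exchange factors. It was also 1 of 2 other small heat shock proteins, 1 of 3 other heat shock factors with HSBP1, and 0 of 9 other HSP70 genes. The lowest excesses were those of HSPB2 (-0.80) and ST13 (-0.47). Named after their values were seen, the largest were FKBP5, an HSP90-bound immunophilin and glucocorticoid target (2.66), CHORDC1, an HSP90 cochaperone (1.20), and DNAJA1, a J-domain protein (1.09). HSP70.1, the table's inducible HSP70 and the RefSeq match of HSPA1A, had an excess of 0.69, but with 20.6 scaled FPKM in LG replicate 3 it was below DP replicates 2 and 3 (27.4 and 25.0). Over the 73 tested chaperone genes outside the set, 34 were highest in LG replicate 3 and the median excess was 0.28.

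Markers of cell types also differed between LG replicate 3 and the other LG goats. The same log2 excess had a median of 0.29 over the 5 milk secretory markers, close to the 0.28 of the wider chaperone genes, but with a wide range: FABP3, a fatty acid binding protein, was at 1.44 and BTN1A1, a milk fat globule protein, at 0.97, while LALBA, the alpha-lactalbumin gene, was at -2.58. LALBA was at 901, 397 and 99.2 scaled FPKM in LG replicates 1 to 3, so the milk genes did not move one way. Median excesses were 0.28 over 7 myoepithelial, 0.19 over 6 luminal and 0.17 over 5 endothelial markers, and -0.17 over 6 fibroblast and -0.44 over 5 tested leukocyte markers. Of the 3 tested adipocyte markers, LIPE, a lipase, had 1.24 and the median was -0.05. The part of these differences in the chaperone levels of LG replicate 3 was not tested.

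Immediate early genes respond within minutes to handling and stress, and FOS and JUN are among the 8 listed. Their median excess in LG replicate 3 was -0.51, with a range of -1.53 to 0.34. Their summed level was 83.9, 204 and 103 scaled FPKM in LG replicates 1 to 3, 228 to 267 in LL, and 207, 120 and 300 in DP replicates 1 to 3, so the highest sum of the 9 libraries was in DP replicate 3.

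**Figure D5:**
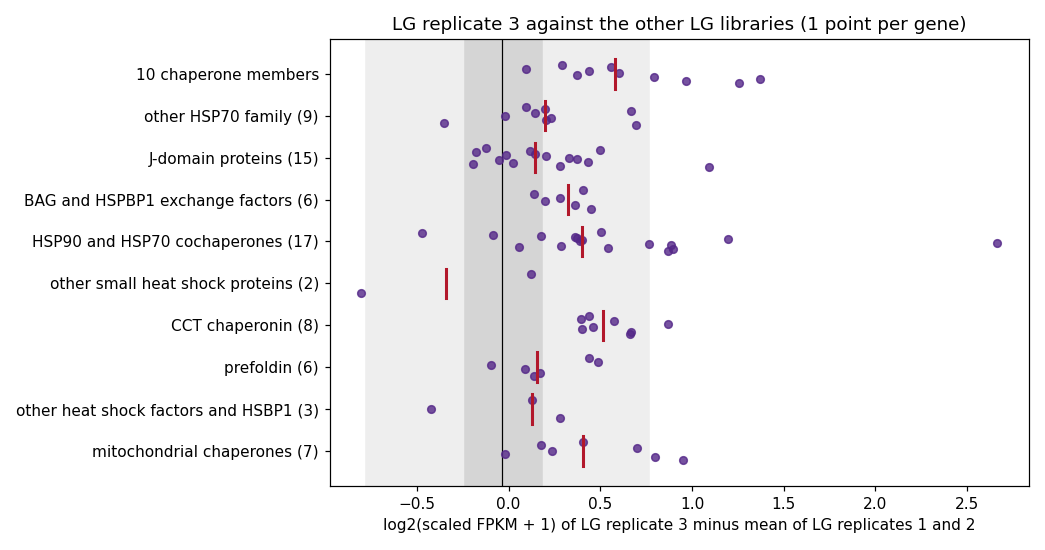
Log2(scaled FPKM + 1) in LG replicate 3 minus the mean of LG replicates 1 and 2 (x axis), 1 point per gene, for the 10 members and 9 lists of other chaperone genes, with list medians in red. Grey bands hold the central 95% and 50% of all tested genes and the black line their median (-0.03); HSPH1, HSPA8, HSPA4 and HSP90AA1 lie beyond the outer band, and the 8 CCT subunits lie right of the inner band.

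The wider chaperone network, 82 listed genes of which 81 were in the table and 73 passed the filter, showed few calls in DP against LL. There 4 genes were called higher and 1 lower, beside 13.8% and 8.79% of all genes, and at adjusted p alone (limma) 12 were higher and 17 lower, beside 28.2% and 28.6%, with a median log2 fold change of -0.06, a sign that turned with no scaling (1.26), quantile normalization (0.09) and upper-quartile scaling (0.13). AHSA2, a relative of the HSP90 activator AHSA1, rose by a log2 fold change of 1.89 from levels at or near 0 in LL, HSPA6, an inducible HSP70, rose by 1.31, and DNAJA4, a J-domain protein, by 1.08. In LL, AHSA2, HSPA6 and DNAJA4 reached at most 0.16, 0.09 and 0.46 FPKM before scaling, below the 0.5 FPKM of the filter. They passed the filter only through stages where they were higher. HSPA9, the mitochondrial HSP70, was the gene called lower: its level was 23.0, 28.9 and 36.4 scaled FPKM in LL and 11.1, 14.4 and 15.4 in DP, and under each of those 3 alternatives no network gene was called lower. HSP70.1 was at 16.5, 12.7 and 14.3 in LL and 14.4, 27.4 and 25.0 in DP, and did not pass (log2 fold change 0.55, adjusted p = 0.106, limma).

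In LG against LL 8 network genes were called higher and 1 lower, beside 10.7% and 6.61% of all genes, and at adjusted p alone (limma) 19 were higher and 8 lower, beside 25.6% and 24.6%. The share that was higher was close to that of all genes, and the median was 0.18. Without LG replicate 3 the 9 calls became 6. CRYAB, the small heat shock protein alpha-B crystallin, rose by 1.87, from 6.27, 9.24 and 12.3 scaled FPKM in LL to 32.1, 36.9 and 37.5 in LG, with 18.8, 15.3 and 15.9 in DP between them. AHSA2 rose by 1.59 and PPID, the HSP90-bound cyclophilin, by 1.26. FKBP5 was the gene called lower (-2.82), with 98.9, 120 and 148 scaled FPKM in LL goats, 30.9, 72.6 and 41.7 in DP, and 6.50, 10.5 and 57.6 in LG, where replicate 3 again stood above the others. By list, adjusted p passed upward for 8 of 17 cochaperones and 5 of 8 CCT subunits, and downward for 2 and 0, beside those 25.6% and 24.6% of all genes. Upward and downward counts were 2 and 3 of 15 J-domain proteins, 1 and 2 of 9 other HSP70 genes and 1 and 1 of 6 prefoldins. They were 1 and 0 of 6 exchange factors, 1 and 0 of 2 other small heat shock proteins, and 0 for mitochondrial chaperones and other heat shock factors.

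In LG against DP 1 network gene was called higher, CRYAB (1.05), and 2 lower, DNAJA4 (-1.51) and the heat shock factor HSF4 (-1.22). At adjusted p alone (limma) 18 were higher and 4 lower, beside 18.4% and 16.4% of all genes, with a median of 0.31, and no network gene was called higher with no scaling, quantile normalization or upper-quartile scaling. Mitochondrial chaperones made up 6 of the 18, out of 7 tested, cochaperones 6 of 17 and CCT subunits 3 of 8, where 18.4% of all genes passed upward. J-domain proteins, other small heat shock proteins and prefoldins gave 1 each. Leaving out LG replicate 2 raised the 3 calls to 8. DNAJA4 was at 2.58, 2.64 and 3.17 scaled FPKM in DP and 0.242, 0.568 and 0.221 in LG, so like HSPB8 it had its highest levels in the 3 DP libraries. It passed the filter through DP, as its unscaled values were 0.41 to 0.46 FPKM in LL and 0.29, 0.70 and 0.29 in LG. Its order of LL and LG therefore rests on values near the floor.

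For the 3 members with the largest F statistic over the stages, the most alike genes among all those tested were found by Pearson r of log2 values over the 9 libraries, as a description over libraries that share the scaling. HSP90AB1 was nearest to KIAA0196, which encodes a subunit of the WASH complex (r = 0.982), the CCT subunit gene CCT4 (r = 0.977) and GLYR1, a nucleosome factor (r = 0.976). HSPB8 was nearest to MARVELD1, a membrane protein gene (r = 0.980), TNFSF12, the cytokine TWEAK (r = 0.979), and CCM2, a scaffold protein gene (r = 0.975). HSPH1 was nearest to NSUN2, an RNA methyltransferase (r = 0.981), PRMT5, an arginine methyltransferase (r = 0.978), and SENP3, a SUMO protease (r = 0.972). No other member of the 10 was among these nearest genes. The genes were picked as the highest of 14701 over 9 libraries, so high r values follow in part from that choice. HSPH1 in LG replicate 3 and HSPB8 in DP replicate 3 were far above their other libraries, and r without these libraries is not given.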

How the data were processed

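RNA was extracted from mammary tissue of 9 goats, and TruSeq libraries were sequenced on a HiSeq instrument. According to the study's methods and processing notes, reads were trimmed, aligned with HISAT2 and quantified; StringTie is named in the methods and HTSeq in the notes, and the gene-level step is not given in the sources used here. The deposited values carry no unit name and were read as the authors' gene-level FPKM, because they have decimals and sum to different totals. Depth per value is unknown and whole reads could not be recovered, so no count test was run.

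The values were divided by median-ratio factors based on 15905 genes and moved to a log2 scale with a pseudocount of 1. Genes reaching 0.5 FPKM or more in 3 or more libraries, 14701 in all, were fitted with limma 3.58.1 in R 4.3.3 (mean-variance trend, all 9 libraries, no covariates), and p-values were adjusted by Benjamini-Hochberg over all of them. The script was tested on simulated data. Ratios were compared with exact two-sided permutation tests, adjusted over 12. Replicates are separate goats, and the labels give no batch. The members, gene lists and tests were chosen with earlier results of these data known. Named are all 10 members, up to 3 called network genes per direction and comparison with the largest fold change, the 3 most alike genes of 3 members, and the markers beside a result. Older symbols were matched through RefSeq's table of ARS1.2 genes, which held 23465 of the gene identifiers. Some genes of the table follow a neighbour's value, so each member was compared with up to 8 neighbours on each side: none of the 10 was tied to one within 1% of its range. Alternatives covered scaling, pseudocount, filter, libraries in the fit, trend, threshold, a replicate block and each library left out. No sequences were used here.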

Additional observations from a re-analysis of the deposited data

How the results depend on the processing

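Scaling moved the results most. Without scaling 9 members were called in DP against LL and 8 in LG against LL, in place of 1 each, and quantile normalization called 3 in each. Without scaling the network calls were 45 and 48, and all tested genes gave 8348 calls (7979 higher, 369 lower) in DP against LL, 7043 (6698 and 345) in LG against LL and, for LG against DP, 2292 (715 and 1577), because the median of all genes was shifted. Upper-quartile scaling split the calls 2432 higher and 1005 lower in DP against LL and 761 and 1234 in LG against DP. Unscaled, the sign turned in DP against LL for HSPA8 (1.11), HSP90AB1 (1.25), DNAJB1 (1.01), BAG3 (0.61) and HSF1 (1.03), in LG against LL for HSPB8 (0.14) and BAG3 (0.036), and for HSP90AA1 (-0.070) in LG against DP. Quantile normalization turned HSPA8 (0.63) and HSP90AB1 (0.64) in DP against LL and HSP90AA1 (-0.24) in LG against DP, and upper-quartile scaling turned HSP90AB1 (0.046) and HSF1 (0.035) in DP against LL. A pseudocount of 0.1 called 2 members in LG against LL (BAG3 at -1.05 was added) and 3912 of all genes in place of 2544. With the adjusted p alone 2 members passed in LG against DP and 3 in LG against LL, and 29, 27 and 22 network genes in the 3 comparisons. Leaving out 1 library at a time gave 0 to 1 member calls in DP against LL (0 without LL replicate 2 or DP replicate 3), 0 to 1 in LG against LL (0 without LL replicate 2 or LG replicate 3) and 1 to 2 in LG against DP (2 without LG replicate 2), and 2 to 8 network calls in LG against DP. The same step spanned 0 for HSPA8 (-0.19 to 0.44), DNAJB1 (-0.031 to 0.18) and HSF1 (-0.0037 to 0.17) in LG against LL and for HSP90AA1 (-0.10 to 0.36) in LG against DP. It also spanned 0 for the log2 ratios of HSP90AA1 to HSP90AB1 (-0.084 to 0.19) and HSPB8 to BAG3 (-0.065 to 0.46) in LG against LL, and of DNAJB1 to HSPA8 in DP against LL (-0.17 to 0.27), LG against LL (-0.44 to 0.24) and LG against DP (-0.47 to 0.21). The cause of these changes was not tested. Other filters, a fit of only the 2 stages compared and a fit with no trend kept the direction and call status of all 30 member values. Of 270 values with a library left out 260 did. The adjusted p alone could still cross 0.05, as for HSP90AA1 in DP against LL with only the 2 stages fitted (adjusted p = 0.0294, limma). Same-numbered replicates did not pair: their deviations correlated at -0.106 to 0.201, with 3 of 9 over 0.1. With a replicate block the member calls stayed at 1, 1 and 1 and the network calls were 5, 9 and 3, so the block changed no call of a member. HSPB1 in DP against LL (adjusted p = 0.0400), BAG3 in LG against LL (0.00897) and HSPH1 in LG against DP (0.0297) passed the adjusted p alone (limma) under it. With 3 goats per stage and unknown read depth, a value that missed the threshold is not shown to be equal between stages.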
